A study of Mus musculus with 12 samples.

Results

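The effect of deleting the 3′IgH CBEs on joining of 5′Sμ breaks was measured in B cells that had received LPS/αIgD-dextran, in 6 of the 12 libraries of the series, 3 from WT and 3 from 3′IgH CBEs-deleted cells. The members are the libraries whose labels give this stimulation, with every junction in their lists. Both groups were mature B cells from the spleens of chimeric mice in which these cells derive from TC1 ES cells of a 129/SV mouse, cultured with LPS, a bacterial lipopolysaccharide, and αIgD-dextran, which crosslinks the B-cell receptor, for 96 h. In the deleted group all of the 3′IgH CBEs had been removed from both alleles in the ES cells, and the WT group carried no deletion. Ages and the number of ES clones or mice behind each group are not given in the sources used here. Exact permutation p-values measure the spread between these libraries. Those of Fisher's exact test compare junctions pooled over libraries and do not measure that spread.

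In class switch recombination (CSR), the deaminase AID starts double-strand breaks in Sμ and in a downstream acceptor S region, and joining of both in deletional orientation places a new constant gene behind the assembled variable exon. Each acceptor is opened by transcription from its own I promoter, most of them under the 3′IgHRR, an enhancer cluster at the end of the locus. The 3′IgH CBEs lie just beyond it and bind CTCF, a protein that halts loop extrusion by cohesin. CSR-HTGTS-seq reads genomic DNA outward from a bait at the 5′ end of Sμ, so each junction shows where, and in which orientation, other sequence, called the prey, was joined to a broken Sμ end. Positions are those of the AJ851868/mm9 hybrid genome, on which the IgH locus is transcribed toward lower coordinates. The most frequent start of the aligned bait, in 12716 of 30728 junctions (41.4%), was position 114669258 of chromosome 12 on the minus strand. It is called the bait start here, and distances are counted from it. The most common first aligned bases of the reads that began there are shown.
5′Sμ bait, chr12:114669229-114669258, minus strand: cacacaaagactctggacctctccgaaacc

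The prey most widely shared among the libraries in each acceptor is shown with AGCT, the motif at the core of S region repeats, in capitals. The Sγ3 prey was found in 6 libraries, the Sγ2b prey in 6, the Sγ2a prey in 4 and the eS prey, from the sequence just downstream of the deleted CBEs, in 2 deleted libraries.
Sγ3 prey, chr12:114603978-114604037, minus strand, hybrid genome: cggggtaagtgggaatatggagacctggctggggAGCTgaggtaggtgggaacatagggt
Sγ2b prey, chr12:114546789-114546848, minus strand, hybrid genome: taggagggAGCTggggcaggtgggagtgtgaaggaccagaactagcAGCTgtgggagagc
Sγ2a prey, chr12:114531639-114531698, minus strand, hybrid genome: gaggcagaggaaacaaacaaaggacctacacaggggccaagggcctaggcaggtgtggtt
eS prey, chr12:114448981-114449040, minus strand, hybrid genome and mm9: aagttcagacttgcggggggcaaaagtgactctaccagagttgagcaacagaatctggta
The first 60 bases of the prey held at least 1 AGCT, which reads the same on both strands, in 1259 of 1486 distinct Sγ3 preys with that many aligned bases (84.7%, Wilson 95% confidence interval 82.8 to 86.5). The share was 88.3% of 2002 in Sγ2b, 77.1% of 2010 in Sγ2a and 73.5% of 4610 in Sμ. In eS it was 29 of 148 (19.6%, 14.004 to 26.7), beside 675 of 2587 preys outside the IgH window defined below (26.1%, 24.4 to 27.8). The preys of the S regions therefore carried the motif far more often than eS preys did, and the eS interval overlapped that of the preys outside the window. The 6 kb of eS in mm9 held 22 AGCT, and 86.6% of 19556 stretches of the same length on chromosome 12 held as many or more. The study reports that most junctions in the core of eS lay within AID-targeting motifs. These are a wider class than AGCT and were not counted here.

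The libraries differed in depth. The IgH window, 300 kb of chromosome 12 from 114400001 to 114700000, held 3933, 4940 and 6097 junctions in WT replicates 1, 2 and 3 and 2087, 2836 and 2958 in the deleted replicates. A share of 3 junctions, the floor used here, corresponds to 0.0492 to 0.144% of a library, and intervals and floors cover counting error only. Replicates 1 of both groups were sequenced in one run and replicates 2 and 3 of both groups in another. Of the junctions of WT replicate 2, 943 recurred in WT replicate 3, which is 15.3% of its distinct junctions, whereas other pairs of libraries had 0.89 to 2.84% in common; 301 of them in Sμ, 117 in Sγ3, 226 in Sγ2b and 222 in Sγ2a. The region, orientation, structure, position and bin results were also obtained without these junctions, and calls lost in this way are named. Whether WT replicates 2 and 3 share a culture or DNA is not given in the sources used here. The SD and p-values count them as separate libraries, and leaving out the shared junctions does not change that.

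Of the 14 regions that tile the window, 8 had libraries that did not overlap between the groups (57.1%), 5 lower (35.7%) and 3 higher (21.4%) in deleted cells. The exact permutation test of 3 libraries against 3 cannot go below p = 0.1, which is its value wherever the groups did not overlap. The regions that rose were Sμ, eS and the sequence below eS, where most junctions lay next to the eS boundary used here. Those that fell were Sγ3, Sγ1, Sγ2b, Sγ2a and the 3′IgH CBEs. The 3′IgH CBEs had been removed from the deleted cells, so their fall was fixed by the design, though it is counted among the 8 and the 5. The study named eS from joining seen in deleted cells of this series. The rises of eS and of the sequence bounded by it are therefore descriptions, though they are counted among the 8 and the 3. The check of the deletion came from the 3′IgH CBEs themselves (114454001 to 114465000), where WT replicates 1, 2 and 3 had 1, 1 and 2 junctions and the deleted libraries had 0 of 7881 pooled. These WT counts are at or below the floor, so the check is thin.

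**Figure D1:**
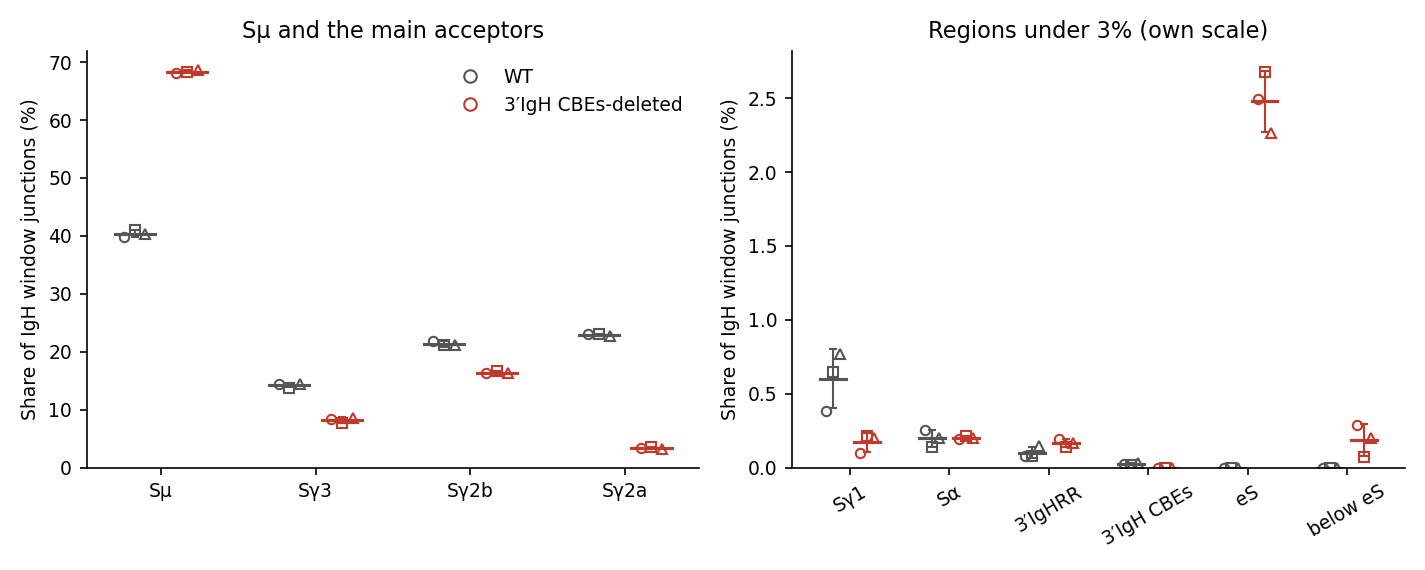
Share of the IgH window junctions in each region (y axis, percent; the right panel has its own scale) for WT (grey) and 3′IgH CBEs-deleted (red) libraries stimulated with LPS/αIgD-dextran; circles, squares and triangles are replicates 1, 2 and 3, lines are means and bars the SD. Sμ and eS lie higher in the 3 deleted libraries, Sγ3, Sγ2b, Sγ2a and Sγ1 lie lower, and Sα overlaps.

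The acceptors fell to very different degrees. Sγ2a, the acceptor for IgG2a (114521001 to 114536000), held 23.0, 23.1 and 22.7% of the window junctions in the WT libraries and 3.40, 3.60 and 3.25% in the deleted ones. Sγ3, for IgG3 (114595001 to 114615000), held 14.4, 13.8 and 14.4% in WT and 8.43, 7.65 and 8.52% in deleted cells. Sγ2b, for IgG2b (114536001 to 114556000), held 21.9, 21.1 and 21.1% against 16.2, 16.6 and 16.3%. The deleted libraries lay below all WT libraries in each of these regions, with Wilson intervals reaching at most 1.64 points from a share, and the deleted mean was 14.9% of WT in Sγ2a, 57.7% in Sγ3 and 76.8% in Sγ2b. The order of the acceptors in WT was Sγ2a, Sγ2b, Sγ3, and in deleted cells Sγ2b, Sγ3, Sγ2a, with no overlap between neighbours in either order. Sγ1, for IgG1, is used little under this stimulation and held 0.600% ± 0.199 (SD, n = 3) in WT and 0.170% ± 0.0644 in deleted cells, but overlapped among junctions outside Sμ (53.4% of WT) and among preys of at least 100 bases (24.9%). Sα, for IgA, is the last acceptor before the 3′IgHRR, and its share was 0.254, 0.142 and 0.197% in WT and 0.192, 0.212 and 0.203% in deleted cells, which overlapped (exact permutation test, p = 0.9). In the 3′IgHRR there were 16 junctions over the WT libraries and 13 over the deleted ones, again with overlap, though its share was higher in deleted cells without overlap under some other settings, such as among junctions outside Sμ (310.01% of WT).

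Sμ took 40.4% ± 0.623 of the junctions in WT and 68.4% ± 0.308 in deleted cells (SD, n = 3). The shares of a library sum to 100%, so a rise of Sμ and a fall of the acceptors cannot be told apart from shares alone. Scaled to 100 junctions within Sμ, Sγ2a had 57.8, 56.2 and 56.3 junctions in WT and 5.00, 5.27 and 4.72 in deleted cells. Sγ3 had 36.3, 33.6 and 35.7 in WT and 12.4, 11.2 and 12.4 in deleted cells, or 34.1% of WT, and Sγ2b 52.9 ± 1.87 and 24.0 ± 0.361, or 45.3% of WT. On this scale Sα fell too, to 60.2% of WT without overlap. Among junctions outside Sμ the picture turned for some acceptors, as Sγ2b rose from 35.8% ± 0.482 to 51.8% ± 0.813 without overlap and Sγ3 was 23.8% ± 0.413 and 25.9% ± 1.60 with overlap (exact permutation test, p = 0.2). Sα rose as well on this scale, from 0.331% ± 0.0910 to 0.639% ± 0.0344 without overlap. Sγ2a stayed lower, at 38.5% ± 0.548 and 10.8% ± 0.502. The fall of Sγ2a thus held on each scale, whereas the direction for Sγ2b, Sγ3 and Sα depended on the scale.

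Deletional junctions within Sμ lay farther from the bait in deleted cells. Junctions within Sμ (114657001 to 114675000) join 1 break to another in the donor region itself, and in deletional orientation they remove the sequence between bait and prey. Their median distance from the bait start was 1.13, 1.04 and 1.07 kb in the WT libraries and 1.95, 1.98 and 2.25 kb in the deleted libraries. All 3 deleted medians lay above every WT median, with a mean difference of 0.979 kb (exact permutation test, p = 0.1). The upper quartile moved from 2.82 kb ± 0.185 to 3.93 kb ± 0.0144 (SD, n = 3), and the lower from 0.262 ± 0.002 to 0.464 ± 0.133. Inversional Sμ junctions, by contrast, had medians of 1.20, 1.18 and 1.21 kb in WT and 1.25, 1.18 and 1.27 kb in deleted cells, which overlapped (exact permutation test, p = 0.3).

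**Figure D2:**
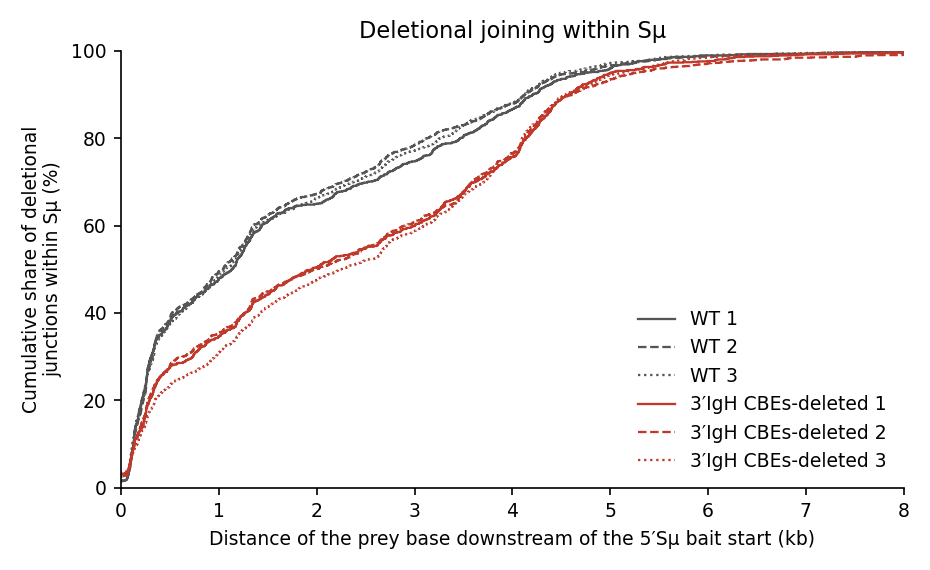
Cumulative share of deletional junctions within Sμ (y axis, percent) against the distance of the prey base from the 5′Sμ bait start (x axis, kb), 1 line for each of the 6 LPS/αIgD-dextran libraries. The 3 deleted lines (red) run below the 3 WT lines (grey), with medians of 1.95 to 2.25 kb against 1.04 to 1.13 kb.

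Steps along Sμ, chosen after the medians were seen, show where the gain lay. As a share of deletional Sμ junctions, the first 0.5 kb held 36.7, 37.2 and 35.0% in WT and 24.3, 25.5 and 19.7% in deleted cells. The step from 4 to 5 kb held 9.23, 8.69 and 9.22% in WT and 19.2, 16.7 and 18.3% in deleted cells. The middle step, from 2 to 3 kb, overlapped at 10.6% ± 0.772 and 10.4% ± 0.867 (SD, n = 3). Counted against the whole window, the first 0.5 kb held 11.3% ± 0.264 and 12.3% ± 1.68 and overlapped, while the step from 4 to 5 kb rose from 2.83% ± 0.105 to 9.58% ± 0.623, a 3.39-fold rise without overlap. Next to that first step, from 0.5 to 1 kb, the deletional share of the window rose from 3.31% ± 0.285 to 3.96% ± 0.195 without overlap. As a share of deletional Sμ junctions the same step fell, from 10.6% ± 0.781 to 7.47% ± 0.359 without overlap. Counted against the window, all of Sμ was at 169% of WT. Inversional junctions in the first 0.5 kb rose from 0.666% ± 0.0611 to 1.51% ± 0.220 of the window. The same difference in 3-kb bins of the window, called where the libraries did not overlap and Fisher's exact test gave a Benjamini-Hochberg adjusted p under 0.05, gave 16 of 31 bins called (51.6%), 7 higher (22.6%) and 9 lower (29%) in deleted cells. The bin of 114667001 to 114670000, at the bait, went from 27.8% ± 0.743 to 37.6% ± 0.602 of the window junctions, and the next, from 114664001, from 10.9% ± 0.143 to 27.05% ± 0.752 (adjusted p = 3.43e-49 and 8.36e-205, Fisher's exact test). The bins from 114661001 and from 114658001 also rose, from 0.75% ± 0.0792 to 2.31% ± 0.0719 and from 0.0738% ± 0.0412 to 0.312% ± 0.158.

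Within the acceptors, the remaining deletional junctions lay closer to the 5′ end of the region, the side of the I exon where transcription enters. In Sγ3 the median distance from the 5′ end of the region was 10.5, 10.4 and 10.5 kb in WT and 10.1, 10.3 and 10.2 kb in deleted cells, a shift of 284 bases. In Sγ2a it was 4.28, 4.29 and 4.33 kb in WT and 3.87, 4.14 and 4.04 kb in deleted cells, a shift of 287 bases, with 60, 91 and 90 deletional junctions left in the deleted libraries. In Sγ2b the shift was small, 53.8 bases, from 8.88 kb ± 0.0104 to 8.83 kb ± 0.0219 (SD, n = 3). No median overlapped between the groups in any of the acceptors (exact permutation test, p = 0.1), so that, with Sμ, 8 of 8 position measures, the median and the share of the most used 3-kb bin in each of 4 regions, did not overlap (100%). Among preys of at least 100 bases 7 of the 8 did not, and the share of the most used bin in Sγ3 overlapped (9.92 points higher). Both measures of a region use the same junctions, and its most used bin was chosen on these libraries, so the 8 are not independent. The 5′ bin of Sγ3, from 114604001, kept more of its junctions, 11.0% ± 0.150 against 7.20% ± 0.744, than the bin 3′ of it, 3.01% ± 0.185 against 0.823% ± 0.321. Sγ2b showed the same order, with 12.3% ± 0.355 and 10.7% ± 0.0889 in its 5′ bin from 114547001 and 8.91% ± 0.436 and 5.60% ± 0.166 in the bin from 114544001. The difference in loss between neighbouring bins was not itself tested beyond the share of the most used bin, which in Sγ3 rose from 75.8% ± 2.03 to 87.1% ± 4.38 of deletional junctions and in Sγ2b from 57.4% ± 1.80 to 65.1% ± 0.0636. In Sγ2a the most used bin is the 3′ one, from 114529001, and its share fell from 58.4% ± 0.787 to 49.8% ± 5.66.

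**Figure D3:**
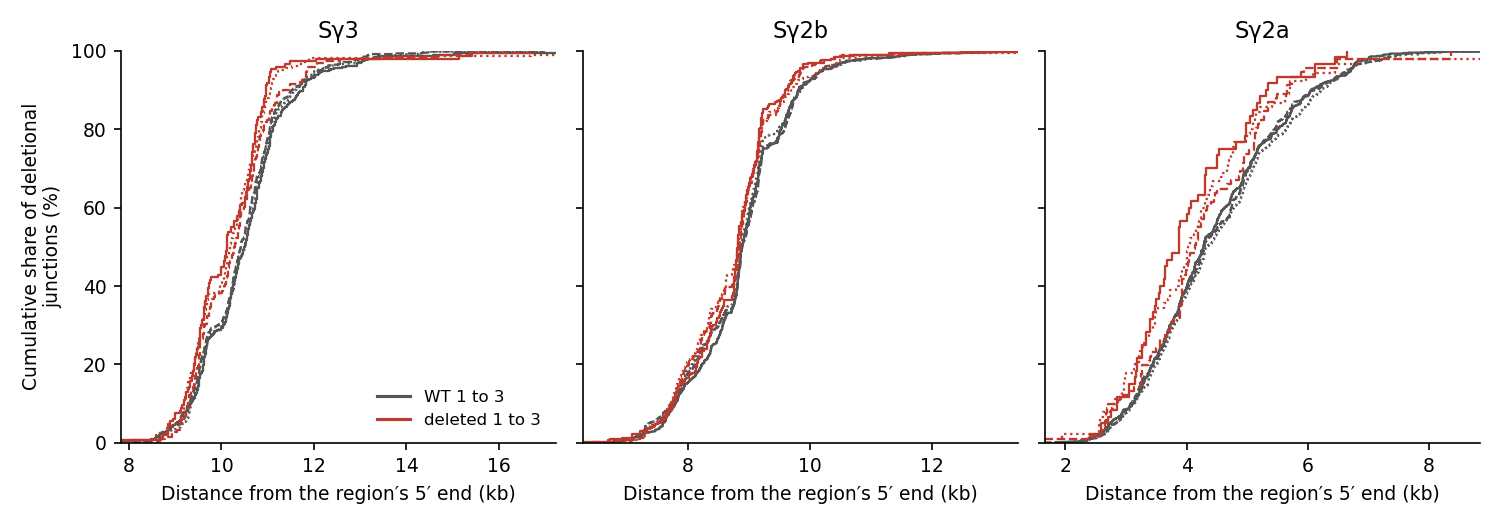
Cumulative share of deletional junctions (y axis, percent) within Sγ3, Sγ2b and Sγ2a against distance from the 5′ end of each region as bounded here (x axis, kb), 1 line for each library, WT in grey and deleted in red. The deleted lines are shifted to shorter distances, by 284 bases at the median in Sγ3, 53.8 in Sγ2b and 287 in Sγ2a.

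Joining of Sμ to sequence downstream of the deleted CBEs, called eS for ectopic S region, was found in deleted cells alone with the boundaries used here. The study lists 1 eS junction in WT replicate 1 and slightly more in each deleted library than are counted below. The coordinates of its eS are not given in the sources used here. eS (114448001 to 114454000, where mm9 and hybrid positions are equal) had 0 junctions in the WT libraries, where 3 junctions would be at most 0.0763%, and 52, 76 and 67 in the deleted libraries, or 2.49, 2.68 and 2.27% of the window. By the annotation of mm9 the stretch is intergenic apart from a U6 small nuclear RNA gene (114452360 to 114452463), in which 1 junction fell. The junctions were spread, with 21, 41, 49, 45, 36 and 3 in successive kilobases from the lowest coordinate, and the 195 junctions used 181 different positions and strands. Of these positions 7 recurred in a second library and 0 in all 3, and the most used had 3 junctions. The 200 bases of eS with the most junctions held 23, from the 3 deleted libraries, and are shown with the first prey bases in capitals.
eS, chr12:114451403-114451602, mm9, minus strand: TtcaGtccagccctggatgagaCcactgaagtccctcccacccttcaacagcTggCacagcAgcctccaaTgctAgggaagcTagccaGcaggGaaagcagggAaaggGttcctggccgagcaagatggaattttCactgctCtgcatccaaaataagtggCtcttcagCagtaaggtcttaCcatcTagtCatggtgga
The capitals scatter along the stretch, which holds 2 AGCT.

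Most eS junctions were deletional. Of the 195 junctions 36 were inversional, 8 of 52, 18 of 76 and 10 of 67 in the deleted replicates. The inversional junctions lay nearer the bait side of the stretch, with medians at 114451427, 114451576 and 114451189, against 114450526, 114450630 and 114450471 for deletional ones, and the lowest kilobase had 21 deletional and 0 inversional junctions. Of 5 regions with enough junctions in every library, 2 differed in orientation between the groups (40%). The inversional share was 13.1, 13.2 and 12.9% in Sγ3 of the WT libraries and 16.5, 13.4 and 17.1% in the deleted ones, and 8.14, 9.31 and 9.18% against 12.7, 10.8 and 11.2% in Sγ2b (exact permutation test, p = 0.1). Both lay higher in deleted cells without overlap, though the Sγ3 shares came close and overlapped when each prey position was counted once (a difference of 1.19 points) or among preys of at least 100 bases (0.564). In Sμ the shares were 22.6% ± 1.19 and 22.4% ± 0.556 and overlapped, but those of deleted cells were lower without overlap over unique prey positions (by -1.97 points) and among preys of at least 100 bases (-2.17). In Sγ2a they were 8.44% ± 1.46 and 10.8% ± 4.62 and overlapped as well.

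Below eS, deleted cells had 6, 2 and 6 junctions in the rest of the window and WT libraries had 0. Of the 14, 8 lay within 1 kb of eS, and with regions narrowed by 1 kb at both ends the share of the deleted libraries fell from 0.187 to 0.0728%. Of these 14 junctions 13 were intergenic and 1 lay in an intron of Tmem121, which encodes a transmembrane protein. The bin test was extended to the rest of the genome after the window had been examined, with preys of at least 70% G left out. It called 3 of the 18 bins of 3 kb outside the window that had at least 5 junctions (16.7%). Counts in these bins were set against the window junctions of each group. The wider rise of junctions outside the window in deleted cells, given below, was therefore not taken out. The called bins were adjacent, covered 114388001 to 114397000 of chromosome 12, and began 51 kb below eS. They held 0, 0 and 1 junctions in the WT libraries and 3, 9 and 8 in the deleted ones, with adjusted p = 0.0151, 0.00855 and 0.0293 by Fisher's exact test. Each bin reached the minimum of 5 junctions through the deleted libraries, with 6, 9 and 5 junctions there and 0, 1 and 0 in WT. These p-values are therefore a description and not separate support. By the mm9 annotation 12 of the 20 junctions of deleted cells lay in introns of Crip1, a small LIM-domain gene (114390223 to 114392088), 1 in a Crip1 exon, 5 in an intron of 4930427A07Rik (114394632 to 114413736) and 2 between genes. They used 20 different positions, 10 in each orientation, and whether their orientation differed from that of eS was not tested. Counts per bin were small, and with deleted replicate 3 left out 0 of the 3 bins were called, with deleted replicate 2 or WT replicate 3 left out 1.

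**Figure D4:**
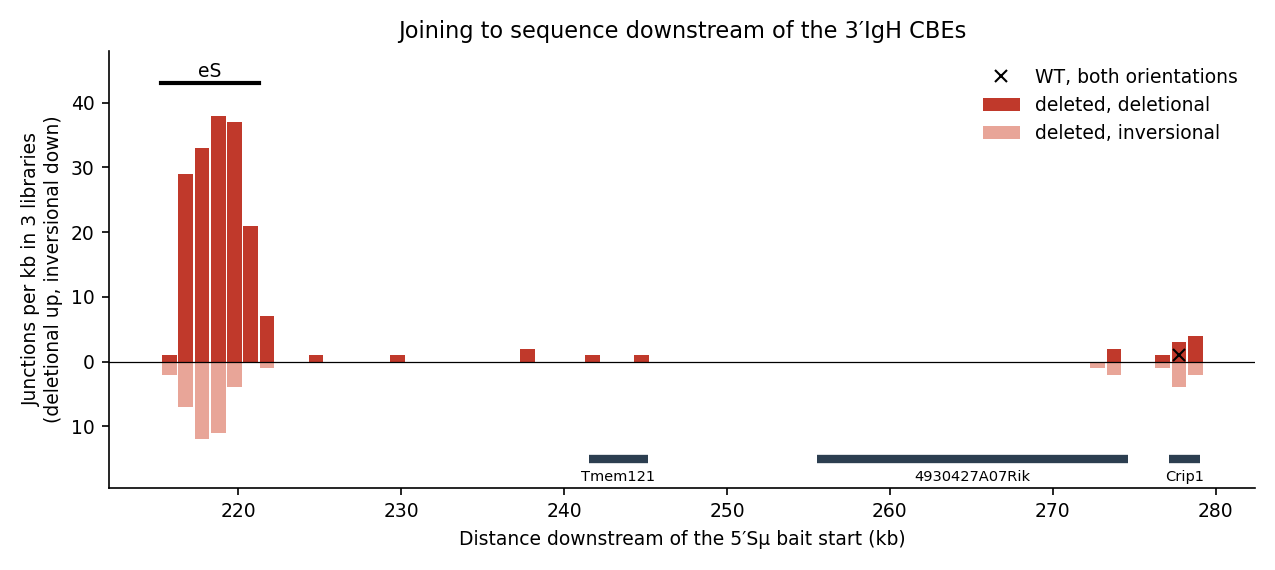
Junctions per kb downstream of the 3′IgH CBEs, summed over the 3 deleted libraries (bars, deletional up and inversional down; WT crosses where present), against distance from the 5′Sμ bait start in reference coordinates (x axis, kb). eS spans 52, 76 and 67 junctions in the 3 libraries, and a second, smaller group with both orientations lies at Crip1, with 3, 9 and 8.

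The junctions themselves were built slightly differently. At a junction the bait and prey alignments can share bases, which is called microhomology, meet directly, or leave unaligned inserted bases between them. A junction from deleted cells with 6 shared bases is shown for Sγ2a and for eS, with 25 bases of bait, the shared bases in capitals and 25 bases of prey.
Sγ2a junction, bait ending at 114669196 and prey starting at 114531811: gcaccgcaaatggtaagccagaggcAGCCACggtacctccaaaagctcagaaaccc
eS junction, bait ending at 114669046 and prey starting at 114449861: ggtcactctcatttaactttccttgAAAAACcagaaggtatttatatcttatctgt
Of 20 measures of structure, 12 did not overlap between the groups (60%), and 8 did not when the junctions shared by WT replicates 2 and 3 were left out. Over the window, direct joins made up 24.0, 23.2 and 23.3% in WT and 21.1, 20.6 and 21.5% in deleted cells. Junctions with at least 2 shared bases made up 34.8, 34.1 and 32.9% in WT and 36.7, 35.9 and 36.3% in deleted cells. The mean number of shared bases among junctions without insertion was 1.65 ± 0.0162 and 1.76 ± 0.0137 (SD, n = 3), so all of these differences were small and none overlapped (exact permutation test, p = 0.1). The same was seen within Sμ alone, with direct joins at 23.3% ± 0.930 and 20.5% ± 0.425 and mean homology at 1.66 ± 0.0340 and 1.81 ± 0.0255, although the direct joins of Sμ overlapped among preys of at least 100 bases (-3.47 points). In each acceptor, junctions with at least 2 shared bases overlapped. They made up 32.5% and 34.9% in Sγ3, 32.2% and 32.2% in Sγ2b and 34.5% and 33.0% in Sγ2a. Direct joins overlapped in Sγ3 and Sγ2b and were lower without overlap in Sγ2a. Mean homology overlapped in Sγ2b and Sγ2a and was higher without overlap in Sγ3, at 1.62 ± 0.0803 and 1.74 ± 0.0488. Insertions rose from 20.7% ± 2.12 to 25.3% ± 0.466 in Sγ3, and were 18.9% ± 2.07 and 24.4% ± 3.82 in Sγ2a and 18.2% ± 0.632 and 20.3% ± 0.637 in Sγ2b. The insertion differences of Sγ2a and Sγ2b, that of the whole window (1.79 points) and the difference in direct joins of Sγ2a (-4.59 points) overlapped without the junctions shared by WT replicates 2 and 3. eS junctions had 24.1% ± 6.44 direct joins, 31.8% ± 3.04 with at least 2 shared bases and 24.4% ± 5.74 insertions. The length of bait left at the junction differed without overlap in 1 of 5 comparisons (20%), with median 76, 75 and 75 bases in Sμ junctions of WT and 72, 73 and 73 in those of deleted cells. It did not hold among preys of at least 100 aligned bases.

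Junctions also lay outside the window more often in deleted cells. The window ends just upstream of Sμ, so a junction outside it is not necessarily outside IgH. Preys of at least 70% G, which occurred outside the window alone and made up 0.428 to 0.603% of the libraries of the first run and 15.1 to 21.2% in the second, were left out of this comparison. Of the remaining junctions 6.02, 7.21 and 8.25% lay outside the window in WT and 20.9, 23.9 and 22.7% in deleted cells, without overlap (exact permutation test, p = 0.1). With these preys kept, the shares were 6.42, 21.3 and 26.2% in WT and 21.3, 40.03 and 35.8% in deleted cells and overlapped, although each deleted library lay above the WT library of its number (14.4 points on average, replicate block). The junctions outside were scattered, on 20 to 22 chromosomes per library, with 6.69 to 10.2% of them on chromosome 12. The 1-Mb bins with most of them were 5 bins: the rest of megabase 114 of chromosome 12, with 5, 7 and 8 junctions in WT and 10, 13 and 15 in deleted cells, which includes the Crip1 stretch, megabases 116, 115 and 113 of chromosome 12, with 12, 10 and 9 pooled junctions in WT and 8, 7 and 5 in deleted cells, and megabase 70 of chromosome 6, which contains Igkc, the constant gene of the κ light chain, with 10 and 6. At least 2 shared bases were seen in 59.6 to 61.5% of the outside junctions in WT and 62.4 to 66.9% in deleted cells. Window junctions had lower shares, 32.9 to 34.8% in WT and 35.9 to 36.7% in deleted cells. Why the outside junctions differed in structure was not tested.

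The αCD40/IL4 libraries, stimulated with T-cell-like signals and otherwise from the same genotypes, allow a comparison with junctions scaled to Sμ. Their lists hold only part of the Sγ1 junctions that the study counts, so that shares of the window cannot be set side by side. Same-numbered αCD40/IL4 libraries were paired here too, although replicates 3 came from separate runs. eS had 3.66, 3.92 and 3.30 junctions per 100 within Sμ in deleted LPS/αIgD-dextran libraries and 3.15, 3.70 and 3.47 in deleted αCD40/IL4 libraries, which overlapped (exact permutation test, p = 0.5). The shift of Sμ junctions did differ, as the paired difference in median distance averaged 0.979 kb with LPS/αIgD-dextran and 0.0555 kb with αCD40/IL4, with no overlap (exact permutation test of 3 paired differences against 3, p = 0.1, the smallest possible). Conversely, the inversional share within Sμ changed by -0.225 points with LPS/αIgD-dextran and by 10.8 points with αCD40/IL4, again without overlap (exact permutation test, p = 0.1). Junctions outside the window rose 2.22-fold per Sμ junction with LPS/αIgD-dextran and 1.56-fold with αCD40/IL4, and the paired differences did not overlap. The Crip1 stretch had 20 junctions beside 5390 within Sμ in deleted LPS/αIgD-dextran libraries, or 0.371 per 100, and 0 beside 3008 in deleted αCD40/IL4 libraries, where 3 would be 0.0997 per 100; the stretch was chosen on these libraries, so these values are a description.

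**Figure D5:**
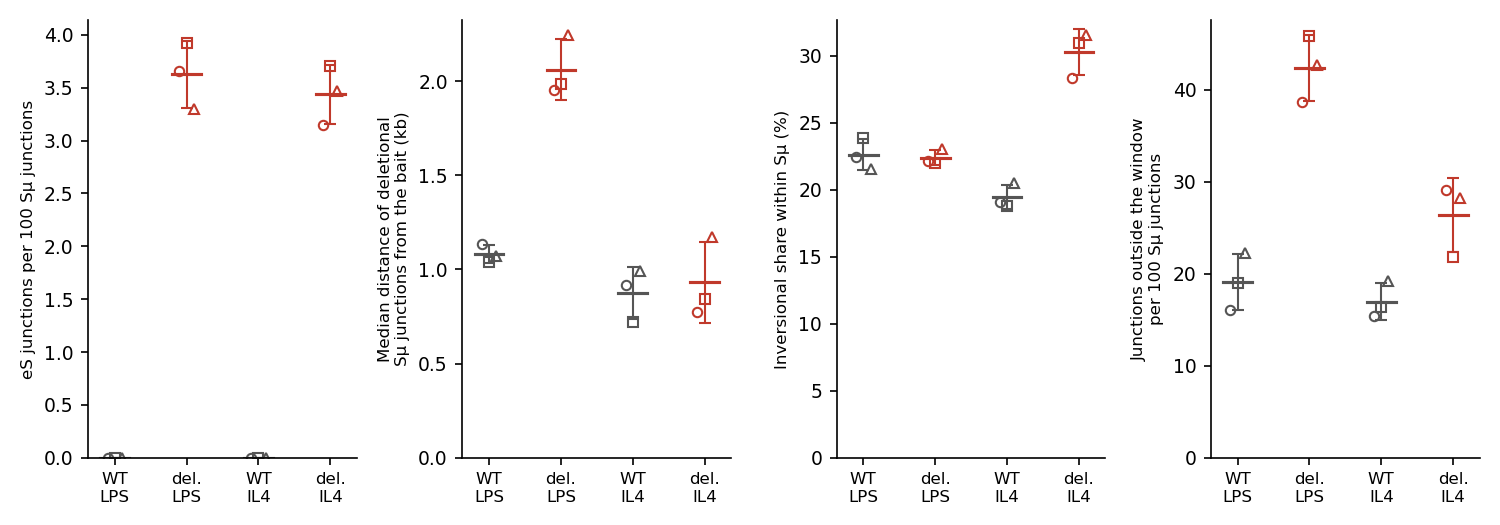
eS junctions per 100 Sμ junctions, median distance of deletional Sμ junctions from the bait (kb), inversional share within Sμ (percent) and junctions outside the window per 100 Sμ junctions (preys of at least 70% G left out), for WT (grey) and deleted (red, del.) libraries under LPS/αIgD-dextran (LPS) and αCD40/IL4 (IL4); circles, squares and triangles are replicates 1, 2 and 3, lines means and bars the SD. eS is similar in both stimulations, while the Sμ distance moves by 0.979 kb under LPS/αIgD-dextran and the Sμ inversional share by 10.8 points under αCD40/IL4.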

How the data were processed

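DNA of splenic B cells was analysed by CSR-HTGTS-seq from a 5′Sμ bait. The authors ran their HTGTS pipeline on the reads against the AJ851868/mm9 hybrid genome, and the deposited lists, 1 per library, hold the junctions left after duplicate removal with their positions, orientation and read, without normalization; per the labels the tools include Bowtie2 and the build is mm9. Its version is not given in the sources used here. Groups and replicate numbers were taken from the labels, and runs from read names. The members and lists were chosen with earlier results of these data known.

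Junctions were counted in 14 regions with boundaries read from published tracks, and in 3-kb bins with at least 5 junctions. For groups the test was a two-sided exact permutation of libraries, a difference being called where libraries did not overlap, and bins by Fisher's exact test on pooled junctions (adjusted p under 0.05, no overlap). Overlap between bait and prey in the read gave homology, direct joining or insertion. Same-numbered libraries were also taken as pairs, since they shared runs and their deviations over 14 shares correlated at 0.437, 0.269 and 0.536. Replicates 2 and 3 had 1 run in common, and WT replicate 3 correlated at 0.472 with deleted replicate 1 from another run. Bins outside the window, steps along Sμ and scaling to Sμ were added after seeing the data. Named items are the 14 regions, called bins, 5 outside bins of 1 Mb and preys shared by most libraries. Of 383 preys at or below 114492731, 375 matched mm9 at their position in at least 25 of 30 bases, and annotation was used there only. Depth per library is given in the text, with 95% Wilson intervals and 3 junctions as the floor. The tools were scipy 1.17.1, pandas 2.3.3 and numpy 2.4.6 in Python 3.11.15, with matplotlib 3.10.9 for plots. Transcription and interaction data were not analysed here.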

Additional observations from a re-analysis of the deposited data

How the results depend on the processing

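The falls of Sγ2a and Sγ1 and the rises of Sμ and eS kept their direction under each alternative run, but Sγ1 overlapped outside Sμ (53.4% of WT) and among preys of at least 100 bases (24.9%). Among junctions outside Sμ, Sγ3 was 108.8% and Sγ2b 144.6% of WT, both reversed. In the window as a whole, the difference in insertions overlapped among preys of at least 100 bases (1.26 points) and without the junctions shared by WT replicates 2 and 3 (1.13). The share outside the window, 14.4 points higher with overlap, no longer overlapped as pairs (replicate block, 14.4) or without preys of at least 70% G (15.3), and leaving out single libraries gave 8.66 to 19.96 points. Bait lengths differed in 0 of 5 comparisons among preys of at least 100 bases and in 1 to 3 when single libraries were left out. The replicate block changed no other call named here except the 3′IgHRR (171.1% of WT, higher in every pair); with it 16 bins were called. Called bins numbered 12 to 18 under the other settings, 15 to 18 with single libraries left out. Sα was 60.2% of WT per Sμ junction and 193.1% outside Sμ, both without overlap, and with overlap 82.4% genome-wide, 96.2% over unique prey positions, 74.8% among long preys, 95.4% with WT replicates 2 and 3 averaged, and 89.6 to 119.4% with single libraries left out. The 3′IgHRR was 97.2% per Sμ junction and 95.9% among long preys, but without overlap 310.01% outside Sμ, 203.9% for deletional junctions and 175.5% with WT replicates 2 and 3 averaged; leaving out single libraries gave 146.3 to 212.7%, without overlap when WT replicate 3 (212.7%) or deleted replicate 2 (177.5%) was left out. Direct joins in Sμ (-3.47 points) and the most used Sγ3 bin (9.92) overlapped among long preys, and homology of at least 2 bases in Sμ over unique prey positions (2.15). Insertions in Sμ differed by -0.0322 points over unique prey positions, -1.60 among long preys, -0.257 without shared junctions and -0.293 to 0.821 with single libraries left out, the inversional share in Sμ by -0.769 to 0.408, and the median Sμ bait length by 0 bases among long preys. The cause was not tested. Bins outside the window numbered 0 to 2 with single libraries left out. With 3 libraries a group, no exact p can pass 0.05, and Sγ2a values in deleted cells rest on 269 junctions.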
